A study of Mus musculus with 12 samples.

Results

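The neuronal intermediate filaments are the 5 genes Nefl, Nefm, Nefh, Ina and Prph. They were taken by gene symbol from the 45906 genes of the deposited count table, and each symbol matched 1 row. RNA of the spinal cord was sequenced from 12 mice at an age of 7 months, with 3 mice in each of 4 genotypes. Plekhg5+/+ mice were the wild-type controls, and Plekhg5-/- mice lacked Plekhg5, a guanine exchange factor of neurons that acts in autophagy. Plekhg5+/+ SOD1G93A mice had intact Plekhg5 and carried a human SOD1 transgene with an amino acid change found in familial amyotrophic lateral sclerosis, a disease in which motoneurons degenerate. Plekhg5-/- SOD1G93A mice had the transgene and lacked Plekhg5. The mice had a C57BL/6 background. The paper calls the SOD1G93A line "low copy", with a slow course of disease, and states that sex was not considered and was distributed evenly. The labels name no conditional allele and no promoter. The whole tissue was sequenced, so that fewer cells of a type and less RNA per cell cannot be told apart in any of the values below.

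Intermediate filaments are rope-like polymers of the cytoskeleton. In axons, the light, medium and heavy neurofilament proteins (from Nefl, Nefm and Nefh) assemble together with alpha-internexin (Ina), and in neurons with long peripheral axons also with peripherin (Prph). Neurofilaments fill large myelinated axons and set their calibre, motoneurons are among the cells richest in them, and neurofilament proteins released from damaged axons are measured in blood and cerebrospinal fluid in amyotrophic lateral sclerosis.

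All family members share a central coiled-coil rod, which dimerizes, and the end of the rod is the most conserved stretch. The 48 bases that encode this end are given for each member from the GENCODE M21 transcripts (GRCm38), 5′ to 3′ on the coding strand, to show how close the 5 genes are to each other. Capitals mark bases that differ from Nefl.
Nefl: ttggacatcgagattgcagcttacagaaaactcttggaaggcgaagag
Nefm: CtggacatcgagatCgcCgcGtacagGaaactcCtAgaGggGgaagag
Nefh: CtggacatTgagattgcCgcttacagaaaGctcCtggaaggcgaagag
Ina: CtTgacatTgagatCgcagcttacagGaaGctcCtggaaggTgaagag
Prph: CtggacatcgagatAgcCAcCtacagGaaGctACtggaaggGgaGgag
Nefh differed from Nefl at 5 of these bases, Ina at 8, Nefm at 9 and Prph at 11. The stretch lies at chr14:68086073-68086508 for Nefl (plus strand), chr14:68121363-68122846 for Nefm (minus strand), chr11:4941394-4943876 for Nefh (minus strand), chr19:47021932-47023356 for Ina (plus strand) and chr15:99057426-99057473 for Prph (plus strand). In Prph it lies within exon 5 of 8, whereas in the other members an intron interrupts it, between exons 2 and 3 in Nefl, Nefm and Ina and between exons 3 and 4 in Nefh.

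The members differ most in the tail that follows the rod. The tails of the medium and heavy proteins project from the filament and are phosphorylated at Lys-Ser-Pro repeats, and the coding sequence of Nefh (1090 codons) held 51 of them and that of Nefm (848 codons) 4. Nefl (543 codons), Ina (501 codons) and Prph (507 codons) held 0. A stretch of 120 bases of exon 4 of Nefh, at chr11:4940938-4941057 on the minus strand, shows the repeat, with the bases of its 7 Lys-Ser-Pro triplets in capitals.
Nefh: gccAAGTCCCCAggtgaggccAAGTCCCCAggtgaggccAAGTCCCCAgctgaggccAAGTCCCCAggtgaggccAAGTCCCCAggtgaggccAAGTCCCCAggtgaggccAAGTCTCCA
In the deposited annotation (GRCm38.p6), Nefl (gene ID 18039) lies at chr14:68083863-68089095 and Nefm (18040) at chr14:68119545-68125004, 30.45 kb apart and on opposite strands. Nefh (380684) lies at chr11:4938754-4948064, Ina (226180) at chr19:47014681-47025327 and Prph (19132) at chr15:99053579-99058978. A gene on the opposite strand overlaps Nefm (A230070E04Rik), Nefh (Gm35321) and Ina (Nt5c2), but reads were counted by strand. Counts were not whole in 6 of the 12 libraries for Nefl, in 7 for Nefm, in 7 for Nefh, in 2 for Ina and in 1 for Prph, where reads were shared with another match or gene.

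The libraries held between 30415643 and 38743628 counts in total. The targeted gene matched the labels in each library, with 19.4 to 25.0 CPM (counts scaled to library size) of Plekhg5 in the 6 Plekhg5+/+ libraries and 3.28 to 4.72 CPM in the 6 Plekhg5-/- libraries, and human SOD1 had 4421 to 5638 CPM with and 0.153 to 5.47 CPM without the transgene. Mice of the same genotype differed beyond counting noise, with a chi-square of 5.42 to 25.9 per degree of freedom over genes. Transcripts of Y-linked genes, which mark males, were present in 3 Plekhg5+/+, 2 Plekhg5-/-, 2 Plekhg5+/+ SOD1G93A and 1 Plekhg5-/- SOD1G93A libraries, of 3 in each genotype. By this mark, sex was not distributed evenly over the genotypes in these libraries. Of the marker genes of the tissue, 12 of 12 pan-neuronal and 10 of 10 motoneuron genes passed the filter on low counts, as against 3 of 8 genes of dorsal root ganglion neurons. The summed level of these 8 sensory genes was 32.6 CPM in the second Plekhg5-/- SOD1G93A library and 4.35 to 6.92 CPM in the other 11. Values in CPM below are normalized with TMM, and a gene is called changed at an adjusted p under 0.05 in the edgeR test over 20155 genes.

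All 5 transcripts passed the filter on low counts. On a scale that divides by exon length (TPM), the level in Plekhg5+/+ mice was 2321 ± 139 TPM for Nefl (mean ± SD, n = 3 mice here and below), 2059.6 ± 129 for Nefm, 925 ± 78.4 for Nefh, 359 ± 34.1 for Ina and 93.1 ± 3.00 for Prph. Ranked among all genes by this level, Nefl was at place 17, Nefm at 26, Nefh at 98, Ina at 416 and Prph at 2199. Nefl, the core subunit without which the others do not form normal neurofilaments, made up 40.3% ± 0.217 of the summed TPM of the 5 genes, followed by Nefm with 35.8% ± 0.117 and Nefh with 16.1% ± 0.329. Ina held 6.23% ± 0.285 and Prph 1.62% ± 0.152. The order of the 5 levels was the same in each of the 12 libraries.

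In Plekhg5+/+ SOD1G93A mice the mean level of each of the 5 transcripts was below that in Plekhg5+/+ mice, with the largest differences for the neurofilament triplet Nefl, Nefm and Nefh. No member passed the threshold in the edgeR test. Nefl had 2482, 2589.6 and 2473 CPM in the 3 Plekhg5+/+ mice and 1815, 2268 and 1845 CPM in the 3 Plekhg5+/+ SOD1G93A mice. The groups did not overlap, and the second SOD1G93A mouse lay nearest to the controls. The fold change was 0.786 (log2 −0.35 ± 0.0906 SE, adjusted p = 0.0639, edgeR). Nefm had 2099, 2202 and 2095 CPM in Plekhg5+/+ and 1410.3, 1846 and 1347 CPM in Plekhg5+/+ SOD1G93A mice. Here too the groups did not overlap and the second mouse was the highest of its group, and the fold change was 0.720 (log2 −0.47 ± 0.120, adjusted p = 0.0586, edgeR). Nefh, which encodes the subunit with the long tail, had 1139, 1250.4 and 1161 CPM in Plekhg5+/+ and 802, 1057 and 789 CPM in Plekhg5+/+ SOD1G93A mice. Its groups did not overlap either, with a fold change of 0.746 (log2 −0.42 ± 0.114, adjusted p = 0.0709, edgeR).

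The other members differed less. Ina, whose product joins the triplet in the central nervous system, had 352, 385 and 387 CPM in Plekhg5+/+ and 313, 367 and 312 CPM in Plekhg5+/+ SOD1G93A mice. The second SOD1G93A mouse lay within the range of the controls and the others below it (fold change 0.882, log2 −0.18 ± 0.0709, adjusted p = 0.198, edgeR). Prph had 76.2, 68.0 and 66.1 CPM in Plekhg5+/+ and 53.1, 68.2 and 59.4 CPM in Plekhg5+/+ SOD1G93A mice. Again the second SOD1G93A mouse overlapped the controls, and the fold change was 0.860 (log2 −0.22 ± 0.103, adjusted p = 0.288, edgeR).

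Thus 0 of the 5 members were called by edgeR in this comparison, against 2.47% of all genes tested. At an unadjusted p under 0.05 there were 4 members (Nefl, Nefm, Nefh and Ina), against 18.2% of all genes, and 3 of 5 members were lower in every library, against 9% of all genes. These 3, the triplet, varied together over the 12 libraries (Pearson correlations of 0.97 to 0.99), so they are not 3 independent results. DESeq2 called 3 members (Nefl, Nefm and Nefh), both with its prior and without, at adjusted p-values of 0.00562 to 0.0113. It also called more of all genes, 1190 with its prior and 1159 without, against 498 by edgeR. Without the second Plekhg5+/+ SOD1G93A library, edgeR called 4 members, with log2 fold changes of −0.48 for Nefl (adjusted p = 0.0123), −0.65 for Nefm (0.0101), −0.59 for Nefh (0.0103) and −0.28 for Ina (0.0415). That library lay nearest to the controls for the triplet, and without it edgeR called 771 of all genes. Without the second Plekhg5-/- SOD1G93A library, Nefm was called (adjusted p = 0.0484, edgeR), and with no filter on low counts Nefl was called (adjusted p = 0.0467, edgeR). Of all genes, 313 and 475 were called under these settings. Some other settings gave weaker values for the triplet. With each library left out in turn, the log2 fold change was −0.48 to −0.29 for Nefl, −0.65 to −0.39 for Nefm and −0.59 to −0.35 for Nefh. Over all alternatives, their adjusted p rose to at most 0.247, 0.225 and 0.260 (edgeR).

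**Figure D1:**
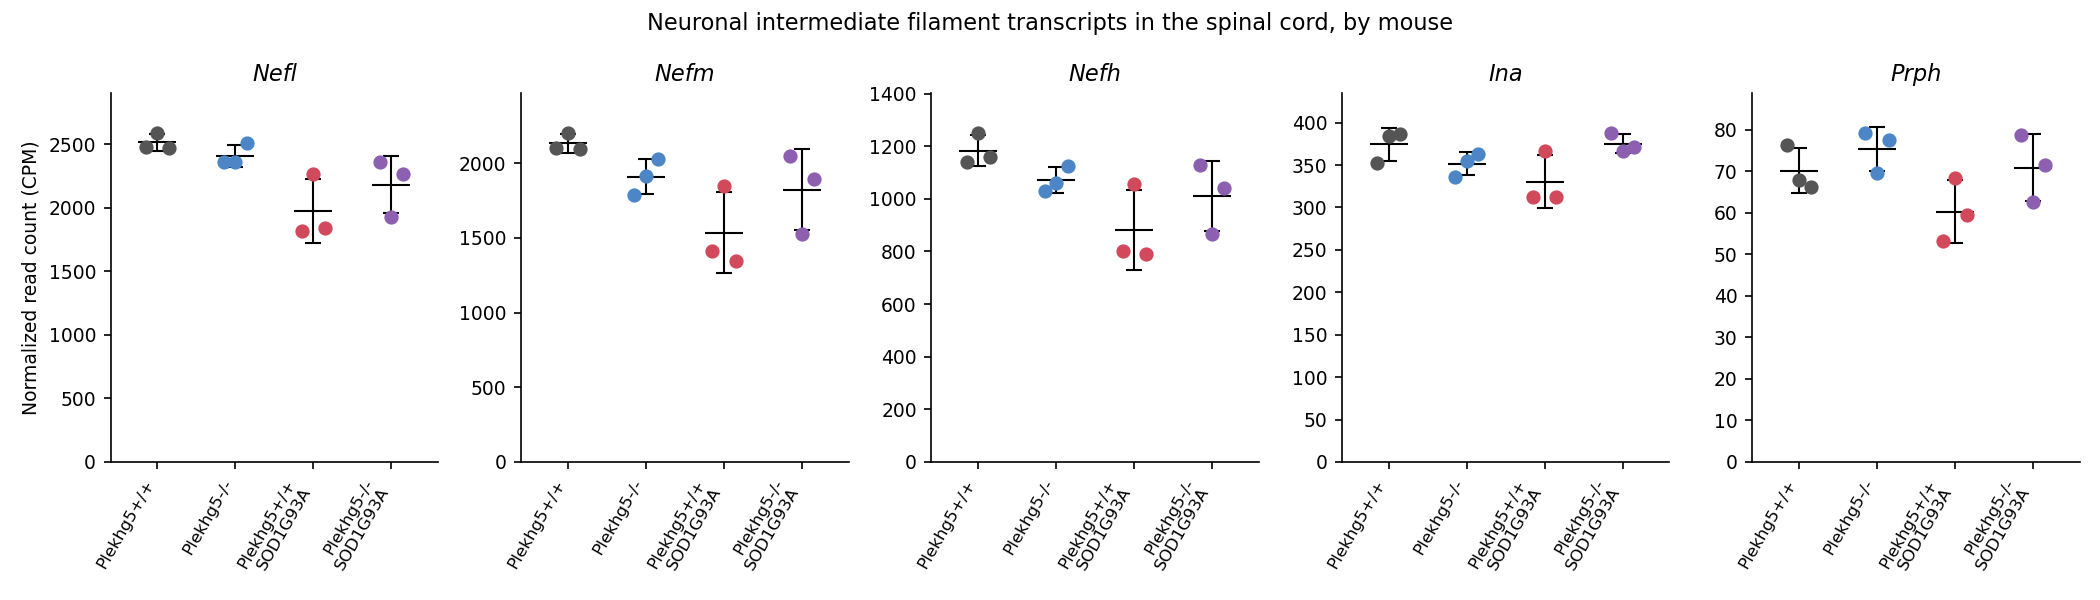
Normalized read count (CPM, y axes from 0) of the 5 transcripts by genotype, with 1 point per mouse and black bars for the mean ± SD of 3 mice. For Nefl, Nefm and Nefh the 3 Plekhg5+/+ SOD1G93A mice lie below the 3 Plekhg5+/+ mice, with the second SOD1G93A mouse nearest to them.

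The transgene was next compared in mice that lack Plekhg5, where the differences of the triplet were smaller and none passed the test. Nefl had 2357, 2359.7 and 2511 CPM in Plekhg5-/- mice and 2357, 1928 and 2265 CPM in Plekhg5-/- SOD1G93A mice. The highest SOD1G93A value and the lowest value without the transgene differed by less than 1 CPM, and the fold change was 0.906 (log2 −0.14 ± 0.0905, adjusted p = 0.950, edgeR). Nefm had 1789, 1915 and 2026 CPM in Plekhg5-/- and 2050.4, 1528 and 1893 CPM in Plekhg5-/- SOD1G93A mice. The groups overlapped, the second SOD1G93A mouse was the lowest and the first the highest of all 6, and the log2 fold change was −0.07 ± 0.120 (adjusted p = 0.962, edgeR). Nefh had 1029.7, 1060.15 and 1125 CPM in Plekhg5-/- and 1127, 867 and 1041 CPM in Plekhg5-/- SOD1G93A mice, with overlapping groups and the same mouse as the lowest (log2 −0.08 ± 0.114, adjusted p = 0.953, edgeR).

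For Ina the direction was the opposite. Ina had 336, 355 and 363 CPM in Plekhg5-/- and 388, 366 and 371 CPM in Plekhg5-/- SOD1G93A mice. Each SOD1G93A mouse was above each mouse without the transgene, as in 7.25% of all genes, and the fold change of 1.07 did not pass the test (log2 0.09 ± 0.0708, adjusted p = 0.950, edgeR). Prph had 79.2, 69.4 and 77.5 CPM in Plekhg5-/- and 78.6, 62.6 and 71.4 CPM in Plekhg5-/- SOD1G93A mice, which overlapped (log2 −0.09 ± 0.103, adjusted p = 0.951, edgeR). In this comparison 0 of 5 members were called, at an adjusted or an unadjusted p, and by edgeR or DESeq2, against 0.00496% of all genes at the adjusted and 5.38% at the unadjusted threshold of edgeR. One member, Nefl, was lower in every library, against 5.22% of all genes. Without the second Plekhg5-/- SOD1G93A library, which had the highest level of sensory neuron genes, the log2 fold changes of Nefm and Nefh were 0.05 and 0.02 and that of Nefl −0.06. The part of that tissue difference in the result was not tested.

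Over both Plekhg5 genotypes together, the log2 fold change with the transgene was −0.24 ± 0.0641 for Nefl (adjusted p = 0.0828, edgeR), −0.27 ± 0.0849 for Nefm (0.142), −0.25 ± 0.0804 for Nefh (0.148), −0.15 ± 0.0727 for Prph (0.353) and −0.04 ± 0.0501 for Ina (0.783). None of the 5 was called, against 1.22% of all genes, and 3 had an unadjusted p under 0.05 (Nefl, Nefm and Nefh), against 14.7%. DESeq2 called Nefl (adjusted p = 0.0138 without and 0.0137 with the prior), where it called 811 and 821 of all genes, against 245 by edgeR. Without the second Plekhg5+/+ SOD1G93A library edgeR called 3, namely Nefl (adjusted p = 0.0175), Nefm (0.0253) and Nefh (0.0237), and 560 of all genes.

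**Figure D2:**
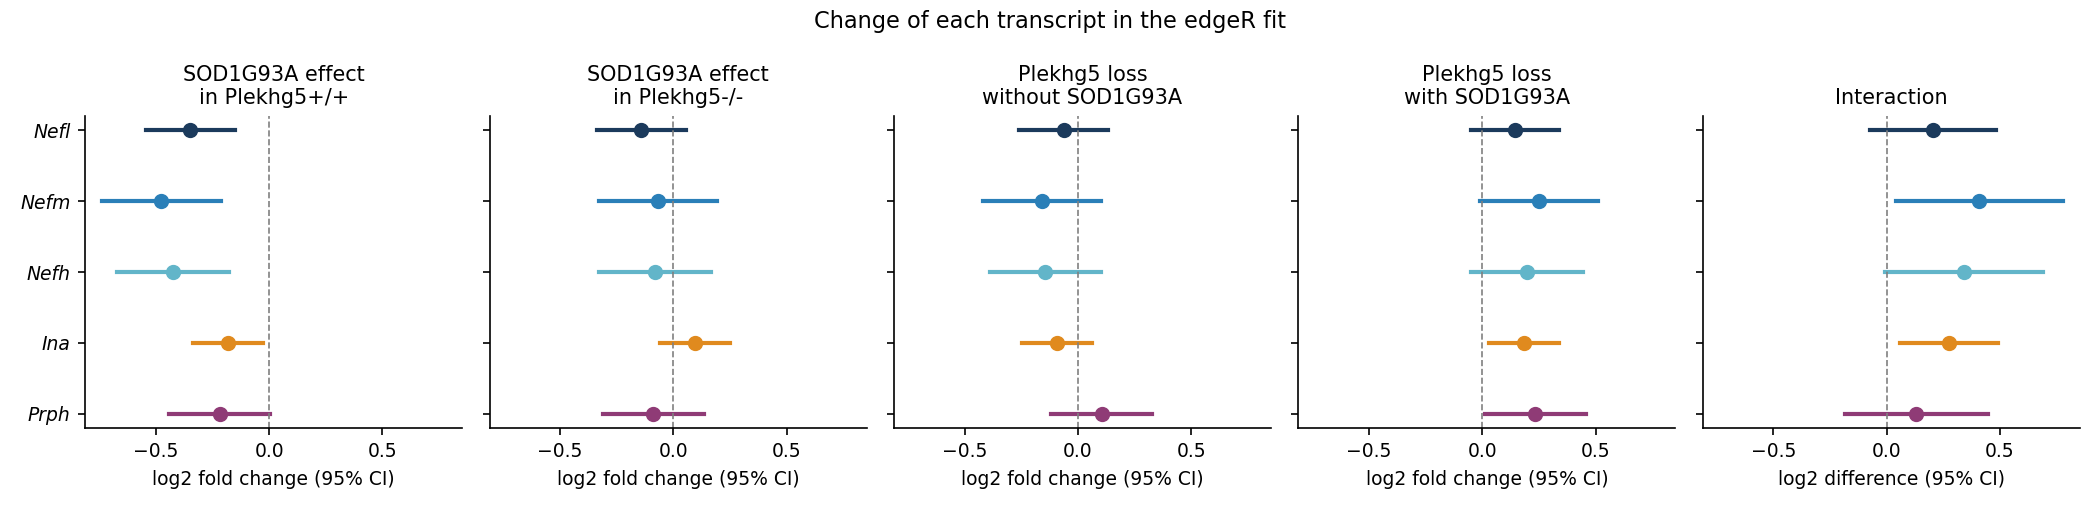
Log2 fold change of each transcript (points) with its 95% confidence interval (lines) from the edgeR fit of the 12 libraries, for the transgene effect in each Plekhg5 genotype, for Plekhg5 loss without and with the transgene, and for the interaction (the difference of the 2 transgene effects). The intervals of Nefl, Nefm, Nefh and Ina exclude 0 for the transgene effect in Plekhg5+/+ mice, without adjustment over genes. So do those of Ina and Prph for Plekhg5 loss with the transgene, and of Nefm and Ina for the interaction.

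The loss of Plekhg5 was compared without and with the transgene. Without it, 2 members, Nefm and Nefh, were lower in each Plekhg5-/- mouse than in each Plekhg5+/+ mouse, against 3.99% of all genes. Their log2 fold changes were −0.16 ± 0.120 for Nefm (adjusted p = 0.995, edgeR) and −0.14 ± 0.114 for Nefh (0.997). Nefm and Nefh varied together over the 12 libraries (Pearson correlation 0.99), so these are not 2 independent results. Nefl (−0.06 ± 0.0905), Ina (−0.09 ± 0.0708) and Prph (0.10 ± 0.103) overlapped between the groups, each with an adjusted p of 0.997 (edgeR). In this comparison 0 of 5 members were called, also at an unadjusted p and by DESeq2, against 0.0298% of all genes (5.32% unadjusted).

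With the transgene, each of the 5 transcripts had a higher mean without Plekhg5 than with it, and each overlapped between the groups. The log2 fold change was 0.14 ± 0.0906 for Nefl (adjusted p = 0.637, edgeR), 0.25 ± 0.120 for Nefm (0.579), 0.20 ± 0.114 for Nefh (0.611), 0.18 ± 0.0709 for Ina (0.522) and 0.23 ± 0.103 for Prph (0.559). By edgeR 0 of 5 were called, against 0.0347% of all genes, and 2 (Ina and Prph) had an unadjusted p under 0.05, against 8.64%. DESeq2 called 0. No member was higher in every library, a pattern found in 9.48% of all genes. The values depended on single libraries: without the second Plekhg5+/+ SOD1G93A library they were 0.27 for Nefl, 0.42 for Nefm, 0.36 for Nefh, 0.28 for Ina and 0.34 for Prph, and the lowest values were 0.09 for Nefl and 0.15 for Prph without the first and 0.16 for Nefm, 0.12 for Nefh and 0.14 for Ina without the third. This comparison shares the Plekhg5+/+ SOD1G93A libraries with the transgene effect in Plekhg5+/+ mice, where the same 5 genes had lower means. The positive direction was not particular to the filament genes, whose median was 0.20. It was found in 10 of 10 motoneuron genes (median 0.24) and in 10 of 12 pan-neuronal genes (0.11). All 10 microglia genes were negative, as were 52.5% of all genes.

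The difference between the 2 transgene effects, tested as an interaction, was positive for each of the 5 members. It was 0.21 ± 0.128 for Nefl (adjusted p = 0.620, edgeR), 0.41 ± 0.170 for Nefm (0.505), 0.34 ± 0.161 for Nefh (0.555), 0.27 ± 0.10 for Ina (0.458) and 0.13 ± 0.145 for Prph (0.766). None passed the test, as in 0% of all genes, and Nefm and Ina had an unadjusted p under 0.05 (0.0323 and 0.0171, edgeR, before adjustment), against 9.05% of all genes. DESeq2 called 0 members. The interaction was also positive in 9 of 10 motoneuron genes (median 0.29) and in 10 of 12 pan-neuronal genes (0.12), against a median of 0.27 for the members. It was negative in all 10 microglia genes and in 52.6% of all genes. With each library left out in turn the interaction was 0.15 to 0.33 for Nefl, 0.32 to 0.58 for Nefm, 0.27 to 0.51 for Nefh, 0.23 to 0.37 for Ina and 0.05 to 0.24 for Prph, highest in each case without the second Plekhg5+/+ SOD1G93A library. It is therefore not shown that the transgene effect on any member differs with Plekhg5.

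By mean level, Nefl, Nefm and Nefh had the order Plekhg5+/+, Plekhg5-/-, Plekhg5-/- SOD1G93A and Plekhg5+/+ SOD1G93A, from high to low. For Nefl the means were 2515 ± 65.0, 2409 ± 88.2, 2184 ± 226 and 1976 ± 253 CPM. Neighbours in this order overlapped for Nefl except for the gap of under 1 CPM between Plekhg5-/- and Plekhg5-/- SOD1G93A mice, whereas for Nefm and Nefh the 2 genotypes without the transgene did not overlap. For Nefm the means were 2132 ± 60.8, 1909.9 ± 119, 1824 ± 268 and 1534 ± 272 CPM. For Nefh they were 1183 ± 59.0, 1072 ± 48.6, 1012 ± 133 and 883 ± 152 CPM. Ina had nearly the same mean in Plekhg5-/- SOD1G93A mice (375 ± 11.2 CPM) and in Plekhg5+/+ mice (375 ± 19.5 CPM), then came Plekhg5-/- mice (351 ± 13.5) and Plekhg5+/+ SOD1G93A mice (330.5 ± 31.5), and all neighbours in this order overlapped. Prph was highest in Plekhg5-/- mice (75.4 ± 5.20 CPM), followed by Plekhg5-/- SOD1G93A (70.9 ± 8.02), Plekhg5+/+ (70.1 ± 5.39) and Plekhg5+/+ SOD1G93A mice (60.3 ± 7.62), and all neighbours overlapped.

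The spread between mice was itself larger with the transgene for the triplet and for Prph. The coefficient of variation of Nefl was 2.58% in Plekhg5+/+ and 3.66% in Plekhg5-/- mice, and with the transgene 12.8% in the former and 10.3% in the latter genotype. For Nefm it was 2.85%, 6.22%, 17.7% and 14.7%, and for Nefh 4.98%, 4.54%, 17.2% and 13.1%, in the same order of genotypes. Prph had 7.69%, 6.90%, 12.6% and 11.3%, and Ina 5.21%, 3.86%, 9.54% and 3.00%. The difference in spread was not tested. The edgeR fit takes the spread of a gene as equal in all 4 genotypes. Its SE of Nefl for Plekhg5 loss was therefore nearly the same without (0.0905) and with the transgene (0.0906). The share of all normalized counts that the triplet took was 0.572% to 0.604% in Plekhg5+/+ and 0.518% to 0.566% in Plekhg5-/- mice. With the transgene it was 0.398% to 0.517% where Plekhg5 was intact and 0.432% to 0.554% where it was lost.

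The proportions of the subunits to each other within a library do not depend on how libraries are scaled. The TPM of Nefm was 88.7% ± 0.247 of that of Nefl in Plekhg5+/+ and 82.9% ± 3.05 in Plekhg5-/- mice, and with the transgene 81.0% ± 4.41 with and 87.1% ± 4.07 without Plekhg5. For Nefh the values were 39.8% ± 1.01, 37.6% ± 0.580, 37.7% ± 1.66 and 39.1% ± 1.22 in the same order. The log2 ratio to Nefl, averaged over both Plekhg5 genotypes, differed with the transgene by −0.03 for Nefm (p = 0.51) and by −0.01 for Nefh (p = 0.72, two-sided exact permutation tests within Plekhg5 genotype, 400 arrangements). These tests average over Plekhg5 genotypes in which the Nefm ratio differed in opposite directions. In Plekhg5+/+ mice it was 88.5%, 89.0% and 88.7% without and 81.3%, 85.2% and 76.4% with the transgene, and the groups did not overlap. In Plekhg5-/- mice it was 79.4%, 84.9% and 84.4% without and 91.0%, 82.9% and 87.5% with the transgene, and they overlapped. The ratios were not tested within each Plekhg5 genotype, where 3 mice against 3 cannot give an exact p under 0.1.

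For Ina the ratio was higher with the transgene. It was 14.7%, 15.4% and 16.2% of Nefl in Plekhg5+/+ mice and 14.8%, 15.6% and 14.98% in Plekhg5-/- mice. In Plekhg5+/+ SOD1G93A mice it was 17.9%, 16.8% and 17.5%, and in Plekhg5-/- SOD1G93A mice 17.1%, 19.7% and 17.0%. Each of the 6 mice with the transgene was above each of the 6 without it, and the highest value was that of the second Plekhg5-/- SOD1G93A mouse. The log2 ratio rose by 0.21 (p = 0.005, two-sided exact permutation test, the smallest p that 400 arrangements can give, and 0.02 after Benjamini-Hochberg adjustment over the 4 ratios). Against the sum of the other 4 members in place of Nefl the difference was 0.22, and without each library in turn it lay between 0.17 and 0.23, with adjusted p-values of 0.02 to 0.04 in these exact permutation tests. A ratio shows that the 2 transcripts changed unequally, not which of them changed. For Prph the ratio was 4.02% ± 0.354 in Plekhg5+/+ and 4.52% ± 0.306 in Plekhg5-/- mice, and 4.40% ± 0.221 and 4.68% ± 0.133 in the corresponding SOD1G93A mice, a log2 difference with the transgene of 0.09 (p = 0.105, exact permutation test, 0.21 adjusted).

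**Figure D3:**
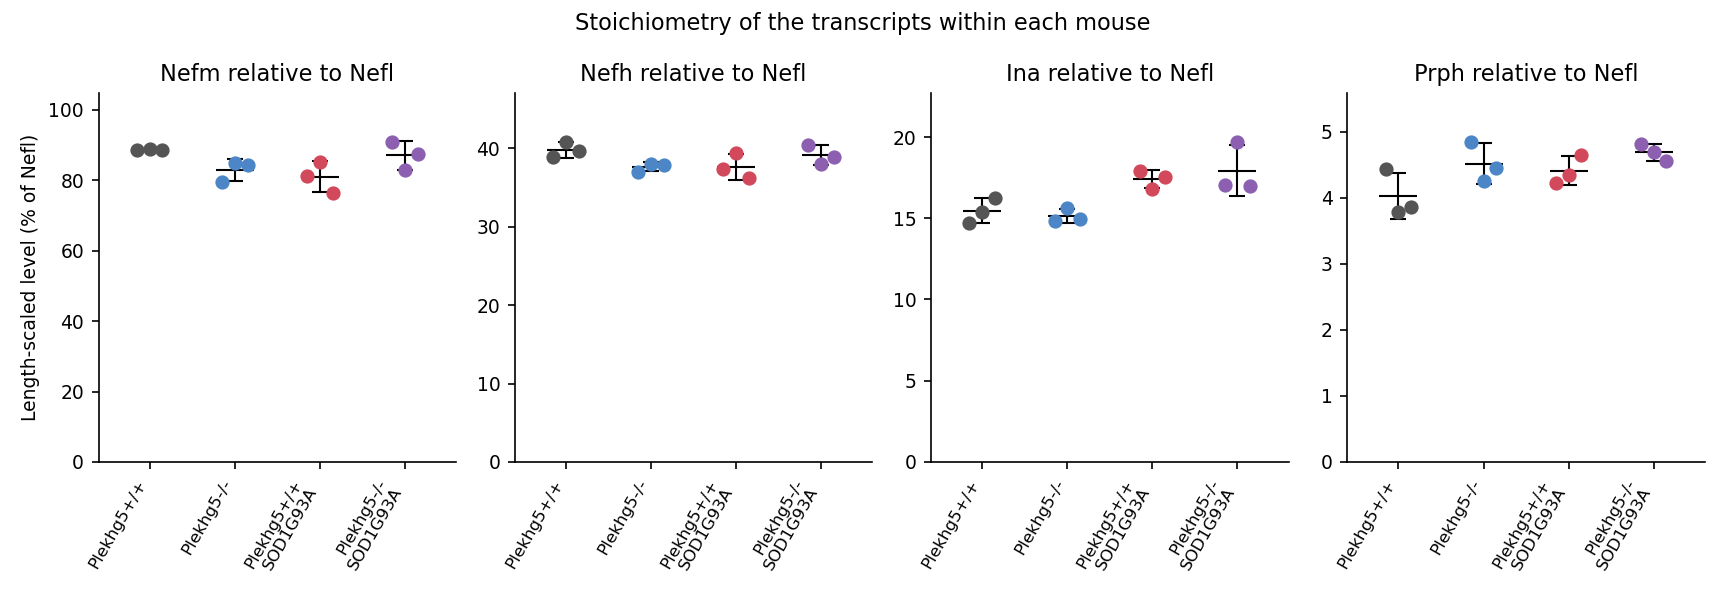
Length-scaled level (TPM) of Nefm, Nefh, Ina and Prph as a percentage of that of Nefl in the same mouse (y axes from 0), with 1 point per mouse and the mean ± SD of 3 mice per genotype. For Ina the 6 mice with SOD1G93A (16.8% to 19.7%) lie above the 6 without (14.7% to 16.2%).

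The members varied together from mouse to mouse, and most closely within the triplet. Over the 12 libraries the Pearson correlation of log2 CPM was 0.99 between Nefm and Nefh (Spearman 0.99), 0.98 between Nefl and Nefh (0.87) and 0.97 between Nefl and Nefm (0.87), each with a permutation p of 0.0001 after adjustment over the 10 pairs of members (Spearman 0.0001, 0.0012 and 0.0012). The libraries share their genotype differences, but the correlations of deviations from the genotype means were as high, with 0.99, 0.99 and 0.98. Without the 2 libraries farthest from the median, the first and the third Plekhg5+/+ SOD1G93A libraries, the 3 Pearson correlations were 0.98, 0.95 and 0.94.

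The correlations of Ina and Prph with the triplet were lower, and their size over all libraries rested on these 2 libraries. Ina had Pearson correlations of 0.70 with Nefl, 0.80 with Nefm and 0.79 with Nefh (adjusted permutation p = 0.0126, 0.00588 and 0.00588), and Spearman correlations of 0.36, 0.63 and 0.67 (0.275, 0.0632 and 0.0483). Without the same 2 libraries the Pearson correlations were 0.11, 0.39 and 0.38, and for deviations from the genotype means of all 12 libraries 0.78, 0.80 and 0.84. Prph had Pearson correlations of 0.79, 0.74 and 0.73 with Nefl, Nefm and Nefh (adjusted permutation p = 0.00545, 0.0083 and 0.0083), Spearman correlations of 0.50, 0.41 and 0.36 (0.172, 0.262 and 0.275), and Pearson correlations of 0.47, 0.36 and 0.33 without these libraries and of 0.79, 0.70 and 0.71 for deviations from the genotype means. Between Ina and Prph the Pearson correlation was 0.52 (adjusted permutation p = 0.0841), Spearman 0.22 (0.50), and −0.38 without the 2 libraries.

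**Figure D4:**
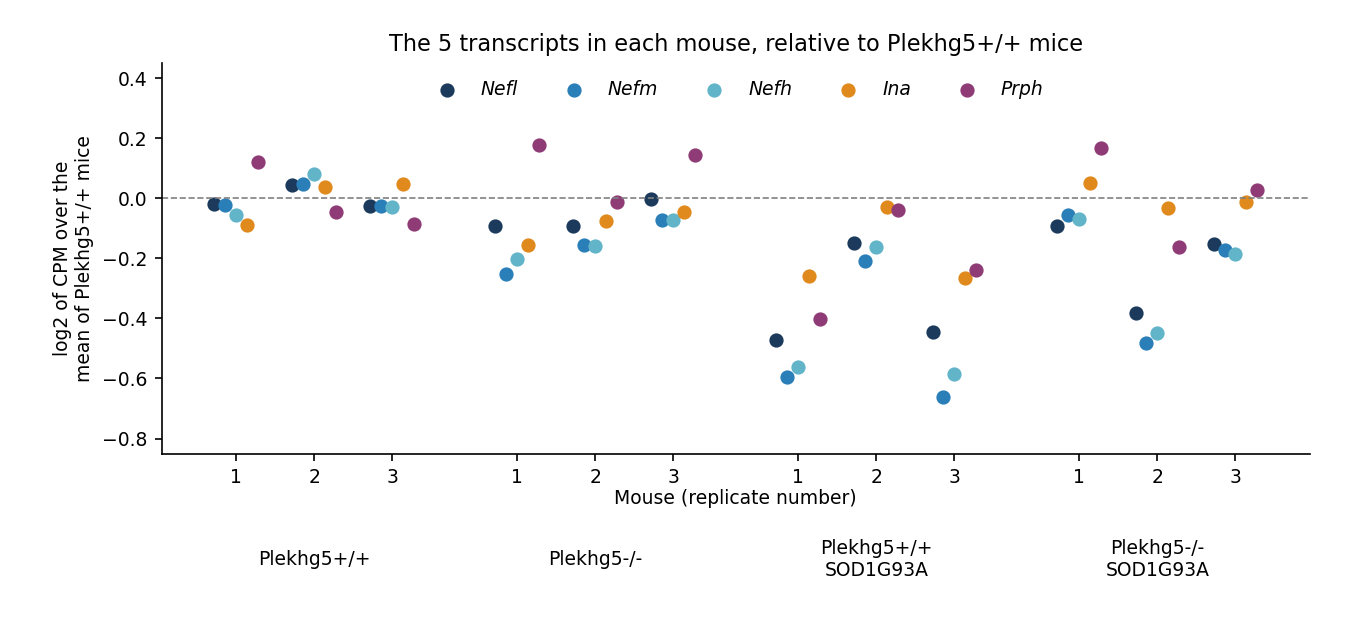
Level of each transcript in each mouse as the log2 of its CPM over the mean CPM of the Plekhg5+/+ mice (0 is that mean), with 1 colour per gene and replicate numbers on the x axis. Nefl, Nefm and Nefh stay close to each other in each mouse, lowest in the first and the third Plekhg5+/+ SOD1G93A mice, with the second Plekhg5-/- SOD1G93A mouse lowest in its genotype, whereas Ina is nearer to 0 than the triplet in each of the 6 SOD1G93A mice.

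Among 11192 genes with a mean of at least 10 CPM, the 2 genes most like each triplet member over the 12 libraries were the other members of the triplet. Next to Nefl came Slc10a4 (r = 0.97), Chodl (0.96) and Lrrc49 (0.96). Slc10a4 encodes a vesicular transporter of cholinergic and monoaminergic neurons, and Chodl is a marker of fast motoneurons. Next to Nefm came Impdh1 (r = 0.95), Ahnak2 (0.95) and Tdrp (0.93), and next to Nefh Slc35f3 (0.94), Impdh1 (0.94) and Entpd3 (0.94). The 5 genes most like Ina were Patj (0.96), Clstn3 (0.95), Clmp (0.95), Usp33 (0.95) and Mfsd6 (0.95), and Nefm, the nearest member, was only at place 514. The 5 most like Prph were Stmn2 (0.93), which encodes a microtubule regulator of axons, Arhgap36 (0.92), Faf1 (0.89), Cend1 (0.89) and Kcnj14 (0.89), and Nefl was at place 63. These correlations describe 12 libraries that share 4 genotypes.

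Of the other intermediate filaments of the tissue, 2 rose in Plekhg5+/+ SOD1G93A mice. Gfap, the filament protein of astrocytes, rose from 1527 to 3592 CPM (log2 fold change 1.23 ± 0.221, adjusted p = 0.0198, edgeR), and Vim, the vimentin gene of glia and vessel cells, rose from 97.7 to 242 CPM (1.31 ± 0.255, adjusted p = 0.0273). These were the 2 of 11 other intermediate filament and linker genes that were called, with a median log2 fold change of 0.00 for the 11, against −0.35 for the 5 neuronal filament genes and 0.00 for all genes. In Plekhg5-/- mice the transgene effect was 0.21 for Gfap and 0.69 for Vim, and none of the 11 was called.

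Genes that act on neurofilaments showed no call in Plekhg5+/+ SOD1G93A mice. Of 9 genes for the turnover and transport of the filaments, 8 had a negative log2 fold change, with a median of −0.19. Among them are the kinesin heavy chains Kif5a (−0.19 ± 0.0755, adjusted p = 0.209, edgeR), Kif5b (−0.21 ± 0.0646, 0.113) and Kif5c (−0.23 ± 0.0846, 0.162). The 10 kinase, phosphatase and regulator genes, which include the tail kinases Cdk5 and Gsk3b, had a median of −0.06. The 5 genes for proteins known to bind neurofilament mRNA had a median of −0.10, with Tardbp, the gene of TDP-43, at −0.18 ± 0.0639 (adjusted p = 0.153, edgeR). The 16 genes of the other axonal cytoskeleton had a median of −0.14 and a range from −0.28 (Map1b, a microtubule-associated protein) to 0.34 (Actb, the beta actin of all cells). With the transgene in Plekhg5-/- mice the medians of these 4 lists were 0.00, 0.01, −0.02 and −0.02, again with no gene called, against −0.08 for the 5 filament genes.

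**Figure D5:**
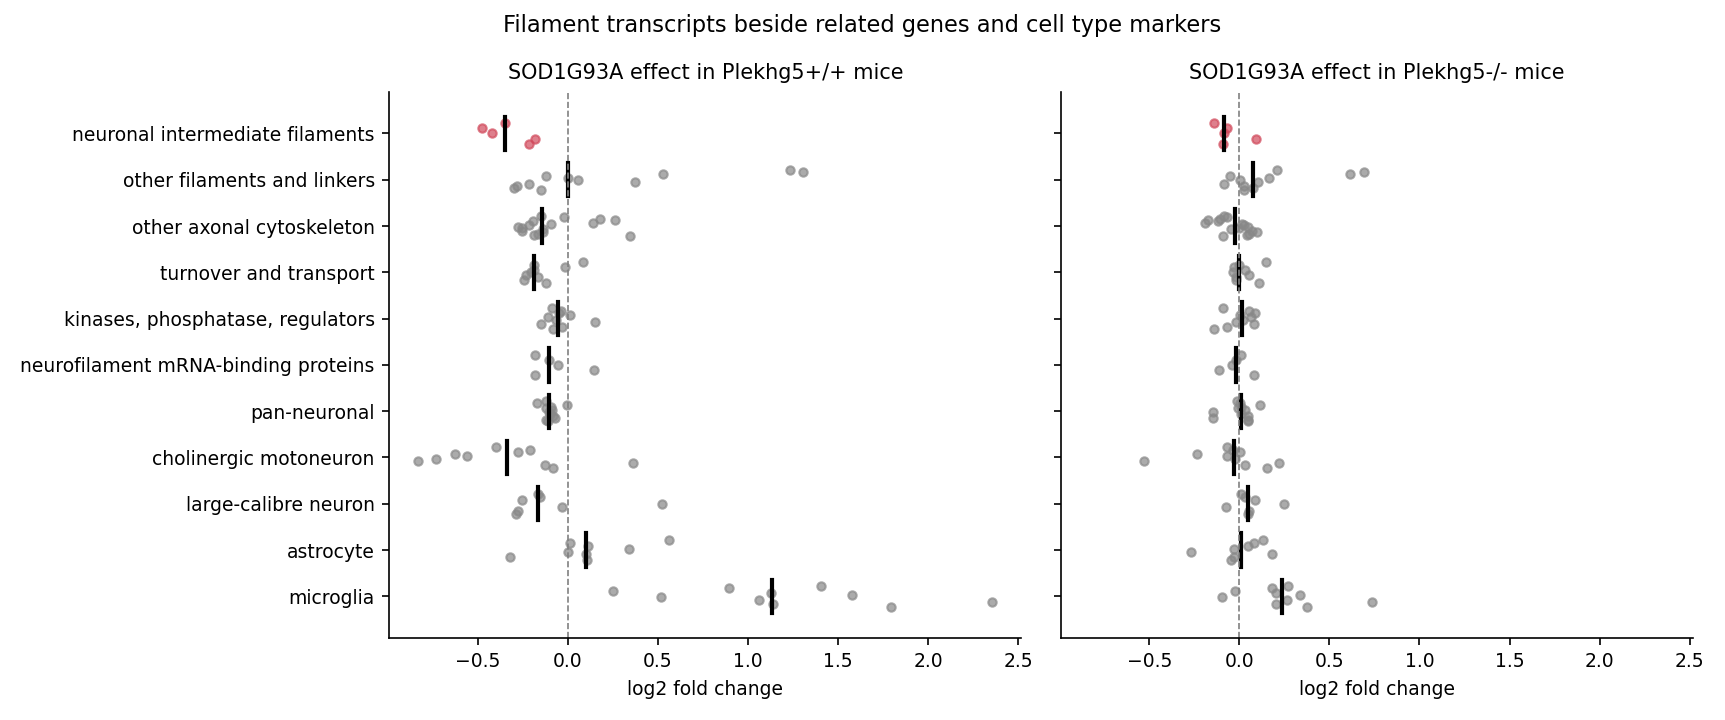
Log2 fold change with SOD1G93A of each tested gene of 11 lists (points, with the 5 filament genes in red) and the median of each list (black bar), in Plekhg5+/+ mice (left) and Plekhg5-/- mice (right). In Plekhg5+/+ mice the filament genes have a median of −0.35 and the cholinergic motoneuron genes of −0.34, while the microglia genes have a median of 1.13.

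The markers of neurons were set beside the triplet in Plekhg5+/+ SOD1G93A mice, with no test between the lists. All 12 pan-neuronal genes had a negative log2 fold change, with 0 called and a median of −0.10, and their summed level was 10124 to 10392 CPM in Plekhg5+/+ and 8993 to 9971 CPM in Plekhg5+/+ SOD1G93A mice. Of the 10 motoneuron genes, 9 were negative, with a median of −0.34, and 1 was called, Chodl, which fell from 41.1 to 23.1 CPM (log2 −0.83 ± 0.184, adjusted p = 0.0387, edgeR). Chat, the gene of the acetylcholine-synthesizing enzyme, had a log2 fold change of −0.40 ± 0.110 (adjusted p = 0.0776, edgeR). With the transgene in Plekhg5-/- mice the motoneuron genes had a median of −0.03, with 6 of 10 negative and 0 called. Chodl lay apart from this median there (log2 −0.53 ± 0.181, adjusted p = 0.773, edgeR). The summed motoneuron genes had 416, 456 and 453 CPM in Plekhg5+/+ and 349, 439.5 and 367 CPM in Plekhg5+/+ SOD1G93A mice, where the second mouse was again the highest. In Plekhg5-/- SOD1G93A mice they had 509, 371 and 459 CPM, and the second mouse was the lowest, as for the triplet. The 7 markers of large-calibre neurons had a median of −0.17, with 0 called and a range from −0.29 to 0.52, the latter for Spp1 (adjusted p = 0.183, edgeR), which activated microglia also express and which was named after its value was seen.

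As a percentage of the summed pan-neuronal genes of the same library, the triplet was at 56.4%, 59.7% and 55.1% in Plekhg5+/+ and at 44.8%, 51.9% and 43.2% in Plekhg5+/+ SOD1G93A mice, which did not overlap. It was at 51.8%, 53.5% and 55.3% in Plekhg5-/- and at 53.4%, 43.1% and 52.0% in Plekhg5-/- SOD1G93A mice, which overlapped. Ina was at 3.47% to 3.80% in Plekhg5+/+ and at 3.39% to 3.68% in Plekhg5+/+ SOD1G93A mice, which overlapped. These percentages were not tested.

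Among the markers of other cells, most calls with the transgene were in the microglia genes, and only in Plekhg5+/+ mice. The 10 microglia genes had a median log2 fold change of 1.13 in Plekhg5+/+ SOD1G93A mice, with 9 called higher. The 4 with the smallest p were Cd68 (log2 2.36 ± 0.300, adjusted p = 0.0125, edgeR), Trem2 (1.79 ± 0.262, 0.0125), Itgam (1.06 ± 0.174, 0.0146) and Csf1r (0.89 ± 0.149, 0.0146). The summed level of the 10 genes was 410.2 to 472 CPM in Plekhg5+/+ and 1358, 764 and 813 CPM in Plekhg5+/+ SOD1G93A mice, lowest in the second mouse. In Plekhg5-/- SOD1G93A mice it was 578 to 647 CPM, against 456 to 619 CPM in Plekhg5-/- mice. Of 8 astrocyte genes, 0 were called (median 0.10), and of 8 oligodendrocyte genes 1, Opalin, a gene of myelinating cells, rose (log2 0.76 ± 0.135, adjusted p = 0.0165, edgeR; median of the list 0.09). The 6 endothelial genes had a median of −0.15 in Plekhg5+/+ and of 0.34 in Plekhg5-/- mice, where all 6 were positive, with 0 called in both. The 5 skeletal muscle genes, also with 0 called, had a summed level of 143 CPM in the third Plekhg5+/+ and 73.0 CPM in the third Plekhg5+/+ SOD1G93A library, and of 1.48 to 42.8 CPM in the other 10. The 8 Schwann cell genes, which mark spinal roots, had summed levels of 267 to 566 CPM in Plekhg5+/+ and 274 to 328 in Plekhg5-/- mice, against 281 to 420.2 and 549.5 to 752 CPM in the corresponding SOD1G93A mice, with 0 called in either transgene comparison. The part of these cells in the levels of the filament transcripts was not tested.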

How the data were processed

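Total RNA of the spinal cord from 12 mice was sequenced by the authors from polyadenylated, stranded libraries. Per the study's methods and the submitters' processing notes, reads were trimmed with Cutadapt (version 2.4), mapped with STAR (2.7.2b) to GRCm38.p6 with the human SOD1 cDNA added, and counted by strand on RefSeq exons with featureCounts (1.6.4). Reads with several matches or several genes were split, so the values the authors deposited are each an expected count (estimated count) per gene, made with featureCounts without normalization. All 12 columns matched a mouse by genotype and replicate number, and 0 columns were left over.

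Counts were rounded, filtered with edgeR's filterByExpr (20155 of 45906 genes kept) and normalized with TMM. One robust quasi-likelihood fit over the 4 genotypes (R 4.3.3, edgeR 4.0.16) gave the 5 pairwise and pooled effects and the interaction, with Benjamini-Hochberg adjustment over all genes tested and a threshold of 0.05. Intervals are at 95%. Log2 CPM used a prior count of 2, and TPM the deposited exon lengths. Ratios were tested with exact permutation tests and correlations with 100000 resamples (numpy 2.4.6). The fit was also run on simulated counts, with the same spread in each genotype and larger changes than those of the members. That run therefore does not show how well changes of the members' size are found. Nothing in the labels pairs the mice, and same-numbered libraries had correlated deviations of −0.16 to 0.32, so the number was used as a block only in an alternative. P-values of the fit rest on a spread per gene that the 4 genotypes share, not on the spread of the compared mice alone. The labels say nothing about litters.

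Named genes are the members, at most 4 called genes per list and comparison by smallest p, defining markers and genes of the lists that the text compares with, the 5 genes most like each member by Pearson's r and neighbouring genes. Values of 1 gene of a list are not reported here. The members and lists were chosen with earlier results of these data known. Alternatives were DESeq2 (1.42.0) with and without a prior, other normalizations and filters, the 2 genotypes alone, the replicate block, Y-linked transcripts (over 1000 counts) as a covariate, an adjusted p under 0.1 and each library left out. Sequences were read from GENCODE M21 for 5 of 5 members, and plots were drawn with matplotlib 3.10.9.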

Additional observations from a re-analysis of the deposited data

Results flagged for a closer look

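Ina was the member in which every mouse of one group lay on one side of its control mean and every mouse of the other group on the opposite side. All 3 Plekhg5+/+ SOD1G93A mice were below the mean of the Plekhg5+/+ mice, and all 3 Plekhg5-/- SOD1G93A mice were above the mean of the Plekhg5-/- mice. Likewise, the Plekhg5-/- mice without the transgene were below the mean of the Plekhg5+/+ mice, and those with it above the mean of the Plekhg5+/+ SOD1G93A mice. Both are the same difference of differences, 0.27 on the log2 scale (edgeR interaction, unadjusted p = 0.0171, adjusted p = 0.458 over the genes tested), which did not pass the test. Over the alternatives it lay between 0.23 and 0.37, with adjusted p-values of 0.240 to 0.804 (edgeR and DESeq2), and it was not called in any of them. Without that order of every mouse, the fold changes of Plekhg5 loss without and with the transgene also had opposite signs for Nefl (−0.06 and 0.14), Nefm (−0.16 and 0.25) and Nefh (−0.14 and 0.20), and Nefm had the larger difference of differences (0.41). Groups of 3 mice are too small for a test of single outlying libraries.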

How the results depend on the processing

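In Plekhg5+/+ mice the number of members called with the transgene was 0 in the edgeR fit, 3 with DESeq2 without or with the prior, 1 without a filter on low counts, 3 at an adjusted p under 0.1, and 0 to 4 with each library left out. Over both Plekhg5 genotypes it was 0, and 1 with either DESeq2, 1 at an adjusted p under 0.1 and 0 to 3 with each library left out. The cause was not tested. In the other 4 comparisons it was 0 under each alternative. With the replicate block it was 0 in all 6 comparisons (Nefl −0.35, adjusted p = 0.0915, in Plekhg5+/+ mice), and the block changed no call on a member. The Y-linked covariate called 0 members in Plekhg5+/+ mice.

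Of the members' fold changes, 601 values under the alternatives kept their direction and side of the threshold, 17 passed it, and 2 changed sign, both without the second Plekhg5-/- SOD1G93A library: in Plekhg5-/- mice, with each library left out, Nefm was at −0.155 to 0.0459 and Nefh at −0.164 to 0.0170. This tally is no measure of robustness. The side kept was that of no call, and leaving out a library outside a pairwise comparison can hardly move its fold change. The log2 ratio of Nefh to Nefl was −0.0286 to 0.00278 with each library left out, and changed sign only without the third Plekhg5+/+ SOD1G93A library. The 4 ratios kept their calls under the other settings, and the 10 Pearson correlations kept theirs on the CPM scale and with DESeq2's size factors. With Spearman's rho, 5 pairs of Ina or Prph with the triplet lost the call that Pearson's r gave.

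Counts over all genes depend more on the setting. In Plekhg5+/+ mice 498 genes were called by edgeR, 1159 and 1190 by DESeq2 without and with the prior, 1145 at an adjusted p under 0.1, 3 with only the 2 genotypes fitted, 4 and 2 without the first and the second Plekhg5+/+ library, and 223 to 771 without each of the other libraries. With 3 mice per genotype the precision is low: the 95% interval of the log2 fold change of Nefm with the transgene in Plekhg5-/- mice ran from −0.33 to 0.19. The members had at least 1709 counts in each library.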
